A study of Mus musculus with 18 samples.

Results

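The ventral tegmental area (VTA) of defeated mice was set against the VTA of mice that had not been defeated. The members are the 9 VTA arrays among the 18 arrays of the series, chosen by the structure and behaviour named in each label: 6 pools from defeated mice and 3 from controls. The defeated pools are 3 classed as susceptible and 3 classed as unsusceptible, and the contrast weights both classes equally. The control pools came from non-defeated mice. All groups were male C57BL/6J mice of 10.5 weeks with no transgene named, and each array carried RNA of tissue pooled from 4 animals. The other 9 arrays hold the nucleus accumbens (NAc) of the same 3 behaviour groups, and the labels do not say whether a VTA pool and a NAc pool came from the same animals. The study's own design text sets each defeated group against control separately, so pooling both is a contrast of this report.

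In social defeat, a mouse is exposed to attacks by a larger aggressor, and some defeated mice later avoid social contact while others do not. The VTA is the midbrain origin of the dopamine neurons that project to the NAc. Its tissue also holds GABA and glutamate neurons, many myelinated fibres with the oligodendrocytes that wrap them, astrocytes, vessels with whatever blood they contain, and borders on nuclei with other transmitters. In bulk tissue, fewer cells of a type and less RNA per cell cannot be told apart.

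The VTA label was checked against dopamine neuron markers. Th, which makes the dopamine precursor, averaged 12.22 log2 units over the 9 VTA arrays, against 7.99 over the 9 NAc arrays, and Slc6a3, the dopamine transporter, averaged 13.76 against 7.40. Slc18a2, the vesicular monoamine transporter, and Ddc, which completes dopamine synthesis, were also higher in the VTA, while Pitx3, a transcription factor of these neurons, lay between 7.30 and 8.08 in the VTA, near the median probe mean of 7.39. Among the VTA arrays the median scanner intensity ran from 148 to 174, no correlation was under 0.986, and no array pair of the series had identical values. VTA unsusceptible pool 3 stood apart: Th was 9.52 there, against 11.97 to 13.00 in the other 8 VTA pools, and Slc6a3 was 11.13, against 13.58 to 14.39. On the first component of the VTA arrays, which held 25.5% of their variance, it lay at 37.6 while the other 8 lay between -12.8 and 7.72. Where a result turns on that pool, its value without it is given as well.

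No gene passed the test between defeated and control VTA. All values are log2 intensities after quantile normalization, and a difference of 1 is a doubling. In limma's moderated test, 0 of 44505 probes (0%) had a Benjamini-Hochberg adjusted p under 0.05, and the lowest adjusted p was 0.268. At an unadjusted p under 0.05 there were 2211 probes (4.97%), 1048 higher (2.35%) and 1163 lower (2.61%) in defeated pools, where an even spread of p would put 2225 probes. The median standard error was 0.0886, so the 95% interval of a typical probe reached 0.183 to either side, and 11 probes differed by more than 1 in size. A p above the threshold does not show that a gene was the same in both groups. All 6 defeated pools lay on one side of all 3 control pools at 1120 probes (2.52%), 574 of them higher (1.29%) and 546 lower (1.23%).

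**Figure D1:**
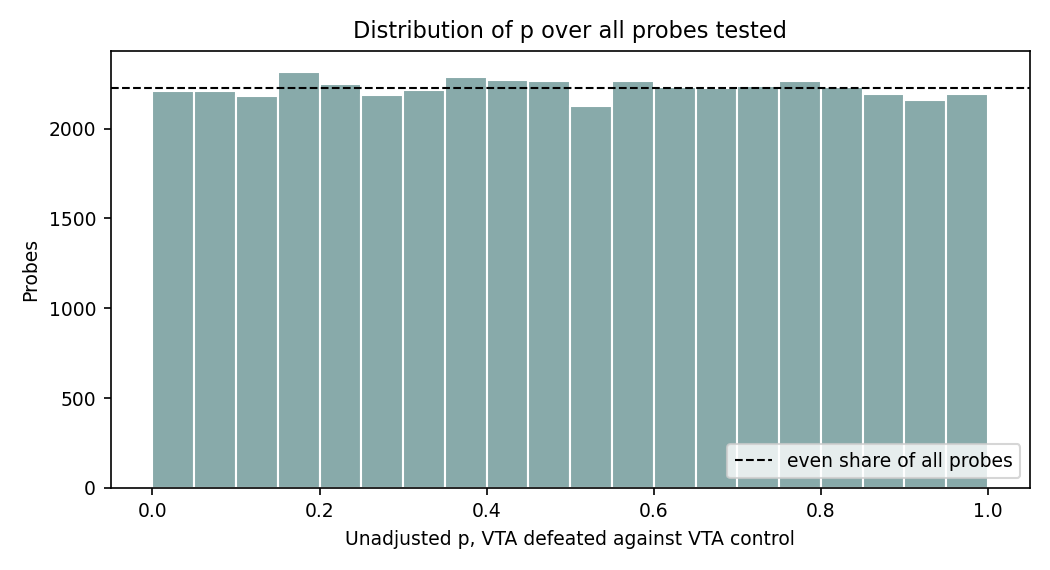
Number of probes (vertical axis) in each bin of 0.05 of the unadjusted p for VTA defeated against VTA control (horizontal axis); the dashed line is an even share of 2225 probes. The lowest bin holds 2211 probes, close to that line.

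Among the 20 leading genes, 10 each way by smallest p, the lower ones were led by genes of the myelin sheath and the higher ones by genes of blood. The 5 genes with the smallest p of the lower side included Mog, Mobp and Mbp, all made by oligodendrocytes, and the higher side held the globins Hbb-bs, Hbb-bt and Hba-a1, the red cell enzyme Alas2, and S100a8 and Lcn2, which neutrophils carry. These are values chosen for their small p, and none passed the adjusted threshold. In 14 of the 20, the 6 defeated and 3 control pools did not overlap, against 2.52% of all probes. The choice by small p favours such genes, so the count is no separate evidence.

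Mog, the myelin oligodendrocyte glycoprotein of the outer sheath, measured 11.88, 11.66 and 11.72 in the susceptible pools and 11.60, 11.48 and 11.26 in the unsusceptible pools, against 12.12, 12.18 and 12.01 in the control pools. Every defeated pool lay below every control pool. The difference was -0.50 ± 0.09 (SE; 95% interval -0.69 to -0.32; adjusted p = 0.268, limma), 0.707 of the control level, and -0.45 without unsusceptible pool 3. The second Mog probe differed by -0.47.

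Mobp, a small basic protein of compact myelin, gave 13.74, 13.46 and 13.71 in susceptible pools and 13.33, 13.32 and 12.84 in unsusceptible pools, against 13.82, 14.09 and 13.83 in control pools. The groups did not overlap, and the susceptible pools were nearer to control than the unsusceptible ones. Its difference was -0.51 ± 0.10 (SE; 95% interval -0.72 to -0.30; adjusted p = 0.282, limma) and -0.43 without unsusceptible pool 3. All 5 Mobp probes were lower in defeated pools, by 0.12 to 0.51 in size.

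Mbp, the myelin basic protein that binds the sheath's membranes together, depended on the probe. At its leading probe the susceptible pools had 9.66, 9.68 and 9.70 and the unsusceptible pools 9.62, 9.67 and 9.06, against 10.15, 10.47 and 10.02 in control pools, a difference of -0.65 ± 0.13 (SE; adjusted p = 0.282, limma). Of its 4 probes, 3 were lower in defeated pools and 1 was higher by 0.13. The brightest Mbp probe differed by -0.04 ± 0.05 (SE), but its level of 15.99 lies close to 16.13, the top of the scale, where a difference cannot be read.

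**Figure D2:**
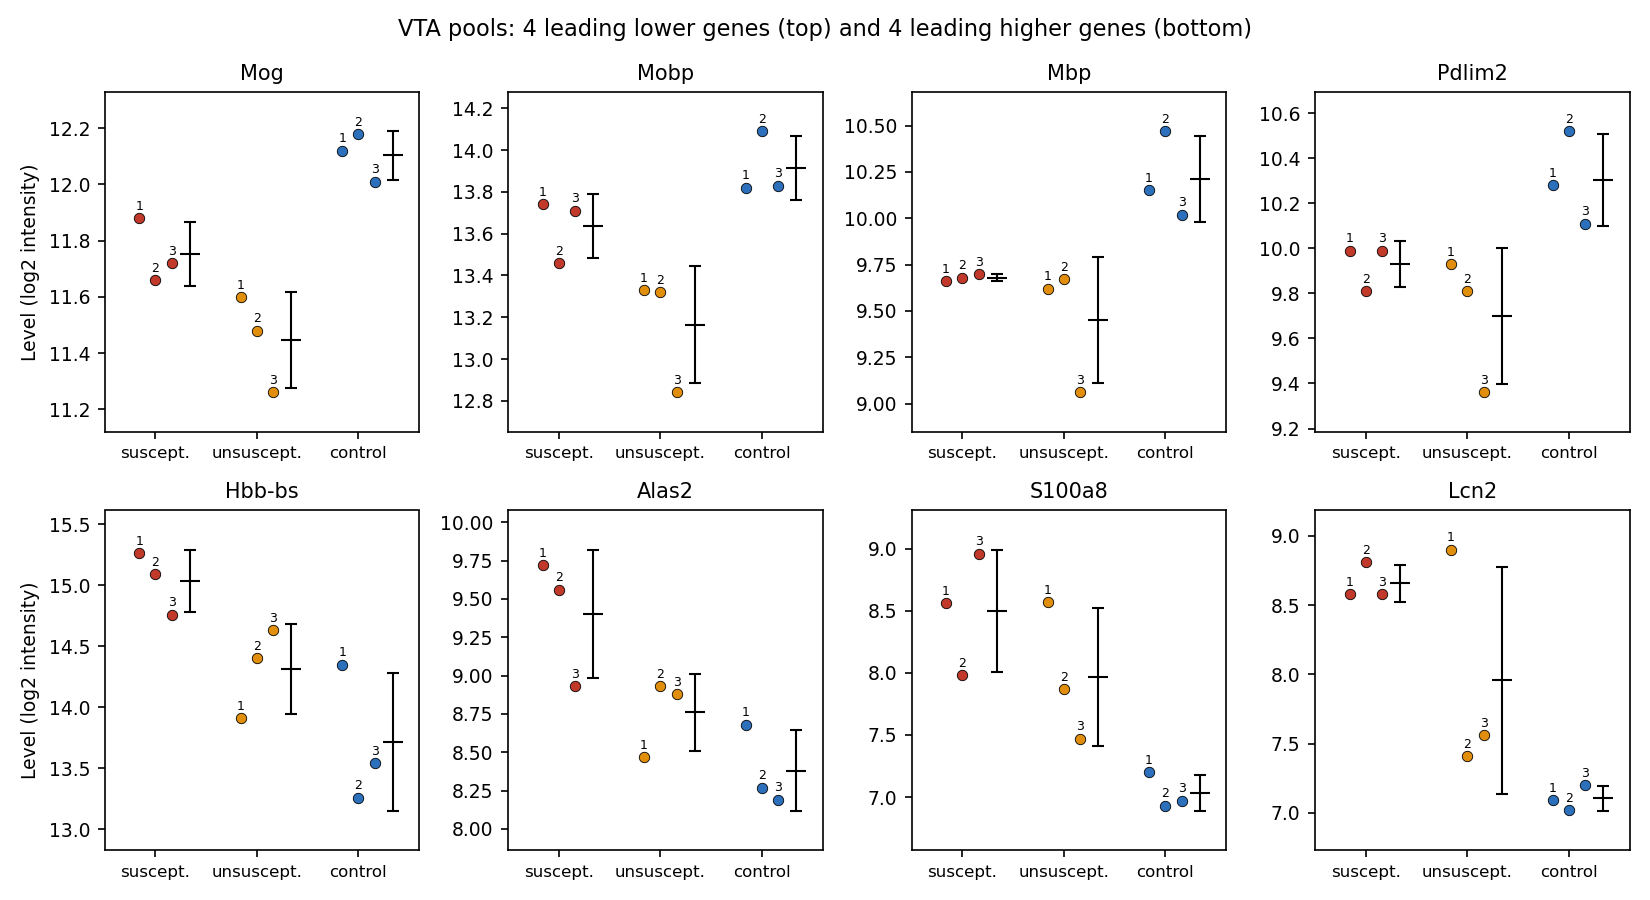
Level in each VTA pool (vertical axis, log2 intensity, with a separate scale in each panel) of 4 leading lower genes (top) and 4 leading higher genes (bottom); points are pools with their number, bars are mean ± SD of 3 pools. For Mog, Mobp, Mbp and Pdlim2 every defeated pool lies below every control pool; for S100a8 and Lcn2 every defeated pool lies above, and for Hbb-bs and Alas2 control pool 1 overlaps the unsusceptible pools.

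The oligodendrocyte list as a whole was lower in defeated VTA. It has 20 entries, 18 of them measured, each by its brightest probe. All 18 differences were below 0, with a median of -0.191 against 0.00846 over all 17274 genes, and 9 of the 18 were lower at an unadjusted p under 0.05, where 2.44% of all genes were. In 6 of the 18 all defeated pools lay below all control pools (1.08% of all genes): Mog, Mobp, Cnp, Cldn11, Opalin and Fa2h. Cnp, an enzyme of the sheath's cytoplasmic channels, differed by -0.32 ± 0.09 (SE). Opalin, a membrane protein of mature oligodendrocytes, differed by -0.27 ± 0.08, Fa2h, which hydroxylates the fatty acids of myelin lipids, by -0.29 ± 0.11, and Cldn11, the tight junction protein of the sheath, by -0.19 ± 0.07 (SE). Earlier results of these data were known when the list was chosen, so it is no independent evidence of its direction.

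Other members overlapped between the groups. Mag, an adhesion protein facing the axon, and Trf, the transferrin that these cells secrete, differed by -0.25 ± 0.10 and -0.32 ± 0.11 (SE). Without control pool 2, Trf differed by -0.21, and without unsusceptible pool 3 by -0.22. Of the lineage transcription factors, Sox10 differed by -0.14 ± 0.09, Olig1 by -0.12 ± 0.07 and Olig2 by -0.08 ± 0.11 (SE), each with an interval that includes 0. The separate list of precursor markers, 9 genes measured, had a median of -0.113, with 1 member lower at an unadjusted p under 0.05, Enpp6, an enzyme of newly forming oligodendrocytes, at -0.33 ± 0.13 (SE). It was -0.21 without unsusceptible pool 3 and -0.20 without control pool 2, at unadjusted p above 0.05 (limma).

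Averaged over its 18 genes, the myelin list stood at 11.98, 11.92 and 12.04 in susceptible pools and at 11.95, 11.90 and 11.56 in unsusceptible pools, against 12.08, 12.20 and 12.06 in control pools. All 6 defeated pools were below the controls, susceptible pool 3 only just, and unsusceptible pool 3 was the lowest. The median difference was -0.13 for susceptible and -0.279 for unsusceptible pools, both against the same controls. Without unsusceptible pool 3 it was -0.136, with all 18 genes still below 0. Then 7 were lower at an unadjusted p under 0.05 (1.94% of all genes were). Without control pool 2, the highest of the controls, that count was 5 (1.92% of all genes). With each array scaled by its median in place of quantile normalization, the median was -0.227 but 2 members were lower at an unadjusted p under 0.05. The share of all genes with that scaling is not given. Then 17 members were below 0, Mbp being the exception.

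The upstream sequences of Mog and Mobp, the leading pair of the sheath genes, are shown because both genes were lower together. They are the 250 bases before the gene start on the gene's strand, from the RefSeq promoter table (GRCm38.p6), which holds 14 of the 20 leading genes. Capitals mark ACAAAG or its reverse CTTTGT, the core letters of sites of Sox factors such as Sox10, and GATAA or its reverse TTATC, the core of GATA sites.
Mog, chr17:37023399-37023648, minus strand: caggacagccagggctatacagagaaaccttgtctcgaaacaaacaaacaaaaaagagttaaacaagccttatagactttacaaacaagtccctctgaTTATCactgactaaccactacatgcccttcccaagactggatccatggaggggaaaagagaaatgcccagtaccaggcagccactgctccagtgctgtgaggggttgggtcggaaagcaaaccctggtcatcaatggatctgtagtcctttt
Mobp, chr9:120149492-120149741, plus strand: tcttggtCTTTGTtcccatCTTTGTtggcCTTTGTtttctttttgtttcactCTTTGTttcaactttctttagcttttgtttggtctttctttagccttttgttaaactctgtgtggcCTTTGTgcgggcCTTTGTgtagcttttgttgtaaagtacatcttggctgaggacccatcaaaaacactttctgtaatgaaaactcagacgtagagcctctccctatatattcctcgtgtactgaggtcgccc
Mobp held 6 matches to CTTTGT and Mog none, and Mog held 1 match to TTATC. Of 32851 promoters with the same window, 16.5% held an ACAAAG match and 22.6% a GATAA match on either strand. A match describes letters, and no match says only that these letters are not in this window.

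Globin genes and Alas2 were higher in the defeated pools, while the red cell list as a whole had a median near 0. Their differences were larger in the susceptible pools, but no probe passed the direct test of susceptible against unsusceptible pools. Hbb-bs, an adult beta globin, had 15.26, 15.09 and 14.76 in susceptible pools and 13.91, 14.40 and 14.63 in unsusceptible pools at its leading probe, against 14.35, 13.26 and 13.54 in control pools. Control pool 1 lay above unsusceptible pool 1, so the groups overlapped, while all 3 susceptible pools lay above all controls. The difference was 0.96 ± 0.17 (SE; 95% interval 0.60 to 1.32; adjusted p = 0.268, limma), 1.94 times the control level. All 9 Hbb-bs probes were higher, by 0.75 to 1.00.

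Hba-a1, an adult alpha globin, differed by 0.82 ± 0.18 and Hbb-bt, the second adult beta globin, by 0.92 ± 0.22 (SE). The near-identical globin genes can share a probe's signal, so these are not separate measurements. Alas2 is the first enzyme of haem synthesis in red cell precursors and no globin. It had 9.72, 9.56 and 8.93 in susceptible pools and 8.47, 8.93 and 8.88 in unsusceptible pools, against 8.68, 8.27 and 8.19 in control pools. Unsusceptible pool 1 lay below control pool 1, and the difference was 0.70 ± 0.16 (SE; adjusted p = 0.487, limma). Susceptible minus unsusceptible pools gave 0.72 ± 0.20 for Hbb-bs and 0.64 ± 0.19 for Alas2 (SE; adjusted p = 0.871 each, limma). For Hba-a1 and Hbb-bt it was 0.68 ± 0.21 and 0.75 ± 0.25 (SE; adjusted p = 0.895 each, limma).

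The 16 globin probes had a median difference of 0.823, 1.18 in susceptible and 0.472 in unsusceptible pools. Of these probes, which can share signal, 12 had an unadjusted p under 0.05 (4.97% of all probes did). At none of the 16 were the defeated pools all above the controls. Control pool 1 decides whether these genes pass: without it the median was 1.17, 11 globin probes passed the adjusted threshold, and Hbb-bs differed by 1.28 (adjusted p = 0.000837, limma). Without control pool 2, the lowest, the median was 0.582 and none passed. Of the 18 measured genes of the red cell list, 5 were higher at an unadjusted p under 0.05 (2.87% of all genes were): Hba-a1, Alas2, Hbb-bt, Hbb-bs and Hbb-b2. The median of the list was 0.0213. Other members include Klf1, the transcription factor of red cell precursors, which differed by -0.07 ± 0.09, and Slc4a1, the anion exchanger of the red cell membrane, by 0.25 ± 0.13 (SE).

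S100a8, one of the pair of calcium-binding proteins that fill neutrophil cytoplasm, had 8.56, 7.98 and 8.96 in susceptible pools and 8.57, 7.87 and 7.47 in unsusceptible pools, against 7.20, 6.93 and 6.97 in control pools. All defeated pools lay above all controls. The difference was 1.21 ± 0.23 (SE; 95% interval 0.74 to 1.67; adjusted p = 0.274, limma) and 1.33 without unsusceptible pool 3. With median scaling it was 1.19 and the sole probe past the threshold (adjusted p = 0.00491). The control level lies below the median probe and was not shown to exceed background, so the difference may understate the change.

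S100a9, its partner, had 8.53, 7.64 and 9.03 in susceptible pools and 8.22, 7.83 and 7.59 in unsusceptible pools, against 7.38, 7.31 and 7.05 in control pools, a difference of 0.89 ± 0.23 (SE). Lcn2, an iron-binding secreted protein of neutrophils and of reactive astrocytes, had 8.58, 8.81 and 8.58 in susceptible pools and 8.90, 7.41 and 7.56 in unsusceptible pools, against 7.09, 7.02 and 7.20 in control pools. Both were higher in every defeated pool than in any control, and Lcn2 differed by 1.21 ± 0.26 (SE; adjusted p = 0.467, limma). For Lcn2 the unsusceptible pools split into 1 high pool and 2 near the controls. The control levels of both lie below the median probe too, with the same limit.

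Of the 17 measured members of the neutrophil list, these 3 were higher at an unadjusted p under 0.05, all without overlap (1.55% of all genes were higher without overlap), and 1 was lower, Mmp8, a granule collagenase, at -0.20 ± 0.09 (SE). The granule genes Ngp and Camp differed by -0.06 ± 0.10 and 0.00 ± 0.08 (SE), with levels of 7.04 and 7.45, near the median probe. The mean level of the list was 7.44 to 7.70 in defeated and 7.33 to 7.34 in control pools. S100a8, S100a9 and Lcn2 raise that mean: over the members the mean difference was 0.225 and the median 0.0934. Endothelial markers, 21 genes, had a median of 0.0191, and their level was 9.26 to 9.55 in defeated and 9.30 to 9.35 in control pools. How much blood the tissue held was not tested.

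The upstream bases of 3 blood genes are shown because they were the leading higher group. Capitals mark the letters of 3 motifs known from globin promoters, searched on either strand with these sequences in view. The first is the CCAAT box. The second is the CACCC box, the core of sites that Klf1 binds. The third is the GATAA core that was also searched above.
Hbb-bs, chr7:103827929-103828178, minus strand: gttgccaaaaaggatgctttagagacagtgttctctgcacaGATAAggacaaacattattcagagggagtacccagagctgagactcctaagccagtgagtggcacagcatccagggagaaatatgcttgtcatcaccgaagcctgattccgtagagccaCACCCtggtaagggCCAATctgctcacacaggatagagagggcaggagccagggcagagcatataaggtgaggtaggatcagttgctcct
Hba-a1, chr11:32283422-32283671, plus strand: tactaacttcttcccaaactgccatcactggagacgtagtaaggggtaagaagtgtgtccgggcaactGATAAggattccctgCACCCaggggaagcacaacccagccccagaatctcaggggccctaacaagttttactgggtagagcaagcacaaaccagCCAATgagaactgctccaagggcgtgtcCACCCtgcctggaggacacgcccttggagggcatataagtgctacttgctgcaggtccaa
S100a8, chr3:90668821-90669070, plus strand: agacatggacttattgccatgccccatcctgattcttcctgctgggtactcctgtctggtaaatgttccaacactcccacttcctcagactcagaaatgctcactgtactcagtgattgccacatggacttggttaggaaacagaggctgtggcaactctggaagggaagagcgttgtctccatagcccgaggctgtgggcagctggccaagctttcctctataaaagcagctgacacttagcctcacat
Hbb-bs and Hba-a1 both held all 3 motifs, and S100a8 held none of the 3. Among the 32851 promoters 33.8% held CCAAT and 52.0% held CACCC in this window.

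Other leading genes are less easily grouped. Dlx1, a transcription factor of forebrain GABA neurons, had 8.14, 8.07 and 8.12 in susceptible pools and 8.11, 7.62 and 9.0 in unsusceptible pools, against 7.49, 7.19 and 7.38 in control pools. All defeated pools were higher, and the difference of 0.83 ± 0.19 (SE; adjusted p = 0.487, limma) was 0.64 without unsusceptible pool 3, the highest. Grrp1 measured 8.61 to 8.77 in defeated pools, against 8.26 to 8.32 in control pools, and differed by 0.39 ± 0.09 (SE). Asb6, a substrate adaptor of ubiquitin ligases, differed by 0.35 ± 0.08 at 1 probe and 0.04 at the other. For Gda, the guanine deaminase, 1 of 3 probes was higher, by 0.47.

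Pea15a, a phosphoprotein abundant in astrocytes, had 11.16, 10.99 and 11.04 in susceptible pools and 10.87, 10.82 and 10.94 in unsusceptible pools, against 11.51, 11.40 and 11.22 in control pools. The groups did not overlap and its difference was -0.41 ± 0.08 (SE; adjusted p = 0.301, limma). Car2, the carbonic anhydrase found in oligodendrocytes, differed by -0.38 ± 0.09 and Tspan3, a tetraspanin, by -0.30 ± 0.07 (SE), at both of their probes in the same direction. Pdlim2, a PDZ and LIM domain protein, was lower by 0.44 at the median of 4 probes, 1 of which was higher. Without unsusceptible pool 3, Car2 differed by -0.29, and the leading Pdlim2 probe by -0.40 in place of -0.49. For Actb, Pde3a and Cyp2u1 other probes of the gene differed by up to 0.07 in the other direction.

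Markers of dopamine and serotonin neurons were mostly lower in defeated pools, with values that moved when single pools were left out. Of 25 dopamine neuron genes, 20 were below 0 with a median of -0.286, but 1 was lower and 1 higher at an unadjusted p under 0.05, where 2.44% of all genes were lower and 2.87% higher. Th had 12.68, 12.46 and 12.55 in susceptible pools and 11.97, 13.00 and 9.52 in unsusceptible pools, against 12.49, 12.54 and 12.79 in control pools. Without unsusceptible pool 3 the median was -0.0998, and Th differed by -0.08 in place of -0.57 ± 0.38 (SE). The median against control was -0.0419 in susceptible and -0.544 in unsusceptible pools. Without unsusceptible pool 2, the highest of that group, 17 of the 25 were lower at an unadjusted p under 0.05, where 3.29% of all genes were. With median scaling and all pools, 8 of the 25 were, but the share of all genes with that scaling is not given.

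Tph2, the enzyme of serotonin synthesis in the brain, had 11.44, 11 and 9.49 in susceptible pools and 12.28, 10.91 and 6.89 in unsusceptible pools, against 11.55, 13.21 and 11.46 in control pools. The pools overlapped, with control pool 2 highest and unsusceptible pool 3 lowest. The difference of -1.74 ± 0.65 (SE; adjusted p = 0.986, limma) was -0.96 without unsusceptible pool 3 and -1.17 without control pool 2. Slc6a4, the serotonin transporter, differed by -1.31 ± 0.42, and Gata2 and Gata3, transcription factors of these and of some GABA neurons, by -0.34 ± 0.11 and -0.59 ± 0.26 (SE). Those 4 of the 8 serotonin genes were lower at an unadjusted p under 0.05 (2.44% of all genes were), and 0 were without control pool 2 (1.92% of all genes). Slc6a4 differed by -0.70 and Gata2 by -0.19 without control pool 2, and by -0.93 and -0.25 without unsusceptible pool 3. Gata3 was 7.80 in unsusceptible pool 3 and 9.38 to 9.77 in the other defeated pools. Serotonin neurons lie next to the VTA, and how far each dissection reached was not tested.

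Hcrt, the orexin precursor made in the lateral hypothalamus, had the largest difference of the genes that the naming rule gave, 2.21 ± 0.62 (SE; 95% interval 0.94 to 3.49; adjusted p = 0.986, limma). It measured 8.05, 8.16 and 12.52 in susceptible pools and 9.81, 9.67 and 12.10 in unsusceptible pools, against 7.88, 7.76 and 7.88 in control pools. Every defeated pool was above the controls, although susceptible pools 1 and 2 only slightly, and without susceptible pool 3 the difference was 1.48. Nts, neurotensin, was 9.46 to 9.88 in defeated pools and 9.11 to 9.42 in control pools, without overlap. The mean level of the hypothalamic list was 8.87 to 9.28 in defeated pools and 8.75 to 8.85 in control pools. Oxt, oxytocin, differed by 0.43 ± 0.20 (SE) with overlapping pools, and by 0.27 without unsusceptible pool 3. Of the 12 genes of the list, 6 were above 0 and 6 below, with a median of 0.0285. Without overlap 2 were higher (1.55% of all genes were), and 3 were higher at an unadjusted p under 0.05 (2.87% of all genes were). The count at that threshold was 1 to 4 when 1 VTA pool was left out (2.13% to 3.79% of all genes). It was 1 without susceptible pool 2, unsusceptible pool 3, control pool 1 or control pool 2.

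**Figure D3:**
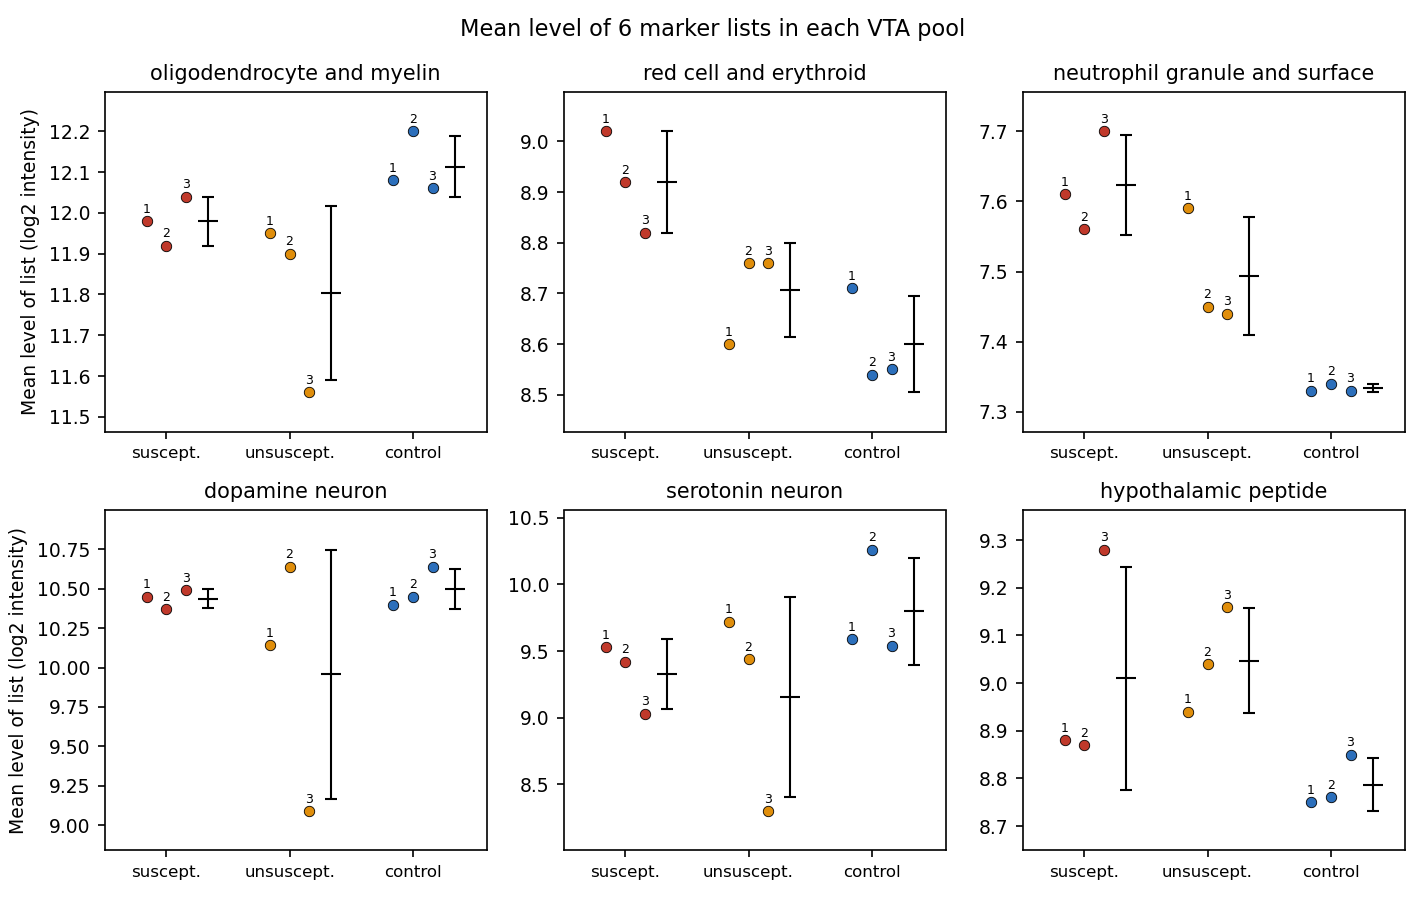
Mean level of each of 6 marker lists in each VTA pool (vertical axis, log2 intensity; separate scale in each panel); points are pools with their number and bars are mean ± SD of 3 pools. The myelin list is below control in all 6 defeated pools and the neutrophil list above control in all 6. Unsusceptible pool 3 is the lowest in the dopamine (9.09) and serotonin (8.30) panels, and control pool 2 is the highest in the serotonin panel (10.26). S100a8, S100a9 and Lcn2 raise the neutrophil mean, and the median difference of that list was 0.0934.

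Across all 35 lists, 30 had a median between -0.1 and 0.1, and the 5 outside were the dopamine, serotonin, oligodendrocyte, oligodendrocyte precursor and astrocyte lists, all below 0. Among the 17 astrocyte genes, S100b, a calcium-binding protein also found in oligodendrocytes, differed by -0.42 ± 0.14 and Slc1a3, a glutamate transporter, by 0.24 ± 0.08 (SE). Ribosomal proteins, 49 genes, had a median of 0.0199 and the 43 genes of oxidative phosphorylation one of -0.0126.

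Of 34 voltage-gated potassium channel genes, which set how readily a neuron fires, 5 were higher and 0 lower at an unadjusted p under 0.05, where 2.87% of all genes were higher and 2.44% lower. The median was 0.0461. With median scaling, where the share of all genes is not given, none of the 34 was higher at that threshold and the median was -0.00694. The count of higher genes was 3 to 7 when 1 VTA pool was left out (2.13% to 3.79% of all genes). It was 3 without susceptible pool 1, unsusceptible pool 3 or any 1 control pool. Kcnf1, a modifying subunit, had 9.92, 9.97 and 9.52 in susceptible pools and 10.22, 9.89 and 10.64 in unsusceptible pools, against 9.74, 9.49 and 9.63 in control pools. The groups overlapped, and the difference was 0.41 ± 0.13 (SE; adjusted p = 0.986, limma), or 0.31 without unsusceptible pool 3. The second Kcnf1 probe differed by -0.04. Kcnd1, a subunit of the transient A-type current, was 8.25 to 8.45 in defeated pools and 7.86 to 8.25 in control pools and differed by 0.25 ± 0.08 (SE). Without control pool 1 it differed by 0.14, and the second Kcnd1 probe by -0.03. Kcnk4, a two-pore channel of the other potassium channel list, was 7.66 to 8.0 in defeated and 7.46 to 7.63 in control pools, a difference of 0.32 ± 0.08 (SE; adjusted p = 0.698, limma).

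Of 24 immediate early genes, which neurons switch on with activity, 3 were higher and 1 lower at an unadjusted p under 0.05, where 2.87% of all genes were higher and 2.44% lower. With median scaling, where the share of all genes is not given, 0 were higher. The count of higher genes was 1 to 4 when 1 VTA pool was left out (2.13% to 3.79% of all genes). It was 1 without susceptible pool 1 or 2, unsusceptible pool 1 or control pool 2. Egr1 differed by 0.40 ± 0.12, Egr3 by 0.32 ± 0.14 and Egr4 by 0.26 ± 0.11 (SE), each with overlapping pools. Gadd45b, a DNA repair and demethylation factor, was 7.24 to 7.81 in defeated pools and 7.92 to 8.01 in control pools, and differed by -0.32 ± 0.11 (SE), or -0.23 without unsusceptible pool 3. Fos differed by -0.03 ± 0.21 and Bdnf, the neurotrophin, by 0.05 ± 0.11 (SE). Fkbp5, a glucocorticoid-induced chaperone, differed by 0.22 ± 0.09 (SE) with overlapping pools.

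Both defeated groups shared the same 3 control pools, so their values stand side by side. Against control, 1 probe passed in susceptible pools (0.00225%), a Hbb-bs probe with an adjusted p of 0.0409 (limma), and 3.46% had an unadjusted p under 0.05. In unsusceptible pools 3 probes passed (0.00674%; 6.85% at an unadjusted p under 0.05), 2 of Mobp and 1 of Mog, which fell, with an adjusted p of 0.0259 each (limma). At those probes the difference was -0.66 for Mog and -0.75 and -0.65 for Mobp in unsusceptible pools, and -0.35, -0.27 and -0.23 in susceptible pools. Neither count is firm. The susceptible count was 0 without susceptible pool 1, control pool 2 or control pool 3, 2 without susceptible pool 2 or 3, 7 without unsusceptible pool 3, 10 without unsusceptible pool 1 and 15 without control pool 1. The unsusceptible count was 0 without any 1 control pool, susceptible pool 1 or unsusceptible pool 3, 6 without unsusceptible pool 1 and 270 without unsusceptible pool 2.

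Set directly against each other, susceptible and unsusceptible VTA differed at 0 of 44505 probes after adjustment (limma), and at 2465 (5.54%) at an unadjusted p under 0.05. Without unsusceptible pool 2, 139 probes passed. Car2 was higher in susceptible pools by 0.52 ± 0.11 (SE; 95% interval 0.30 to 0.75), with 11.81, 11.70 and 11.84 in susceptible and 11.45, 11.42 and 10.92 in unsusceptible pools. Pltp, a phospholipid transfer protein, was higher by 0.42 ± 0.09 and Mobp by 0.42 ± 0.10 (SE). In all 3 the susceptible and unsusceptible pools did not overlap. The genes were picked by smallest p of this contrast, so that is no separate evidence. The lower ones were Trpm7, a channel kinase, by -0.37 ± 0.08, Cacna1c, an L-type calcium channel, by -0.50 ± 0.12, and Rfk, riboflavin kinase, by -0.34 ± 0.08 (SE). The adjusted p of all 6 was 0.871. When 1 VTA pool was left out, Car2 differed by 0.35 to 0.62, Mobp by 0.30 to 0.51 and Cacna1c by -0.60 to -0.32.

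The same contrast in the NAc called 153 of 44505 probes (0.344%), 134 higher and 19 lower, and 11.6% had an unadjusted p under 0.05. The difference between the structures was tested itself, and 0 probes passed (limma; lowest adjusted p 0.103), with 4174 (9.38%) at an unadjusted p under 0.05. The blood genes were higher in both. Hbb-bs differed by 0.96 in the VTA and 0.99 in the NAc (difference -0.04, 95% interval -0.54 to 0.47), S100a8 by 1.21 and 1.08 (0.12, -0.54 to 0.78), and Lcn2 by 1.21 and 1.39 (-0.19, -0.96 to 0.58). Of the 10 leading higher VTA genes, 9 were also above 0 in the NAc, and of the 10 lower, 7 were below 0. The 9 include Hbb-bs, Hbb-bt and Hba-a1, which are not separate measurements, and Gda, at 0.04 in the NAc. These counts are given without a share over all genes, so they do not measure how alike the structures were.

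Mog differed by -0.50 in the VTA and -0.22 in the NAc, a difference between structures of -0.28 ± 0.13 (SE; adjusted p = 0.497, limma). For Mobp it was -0.38 ± 0.14 (SE; adjusted p = 0.4, limma) and for Mbp -0.13 ± 0.18 (SE). The median of the 18 oligodendrocyte genes was -0.191 in the VTA and -0.0466 in the NAc. No myelin gene passed the test of the difference between structures.

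**Figure D4:**
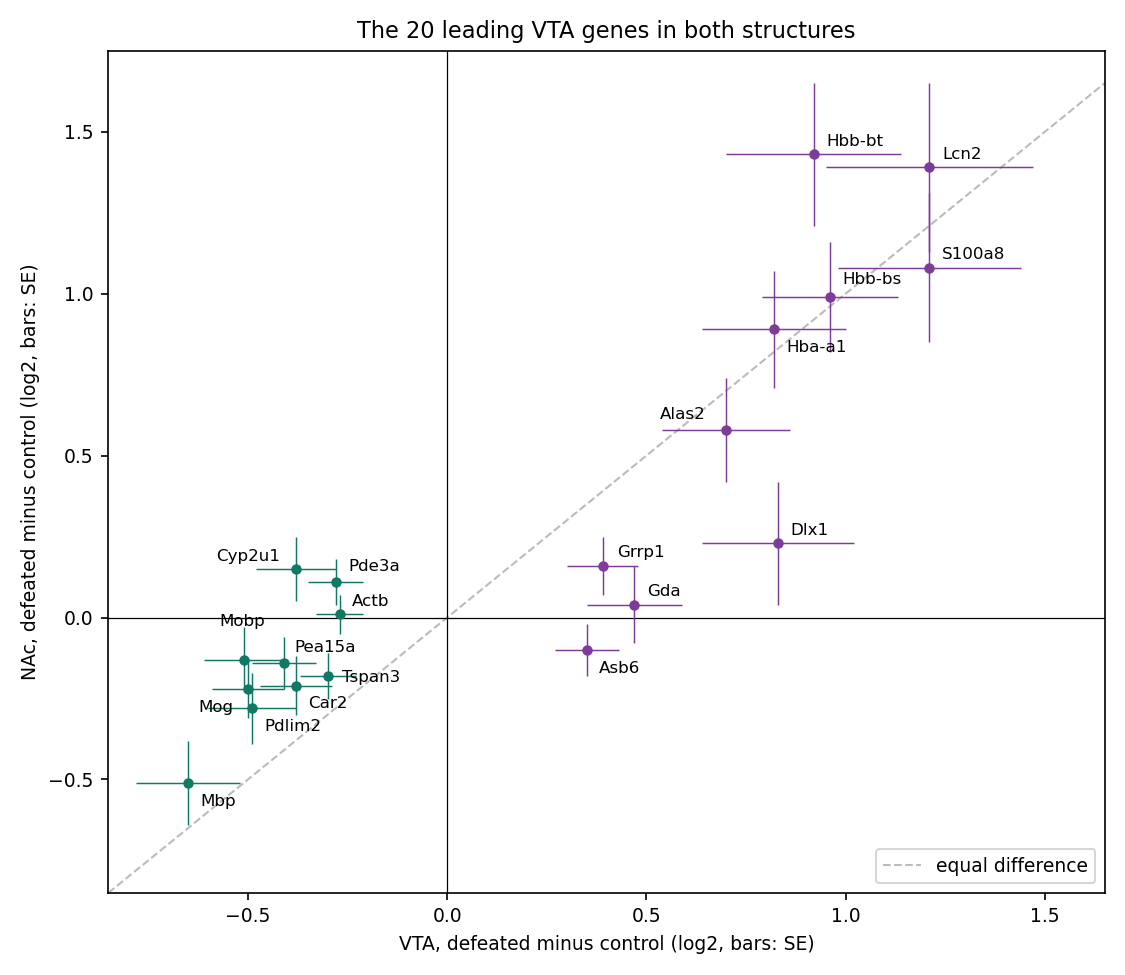
Log2 difference between defeated and control pools in the VTA (horizontal axis) and in the NAc (vertical axis) of the 20 leading VTA genes, purple for the higher and green for the lower ones; bars are SE and the dashed line marks equal differences. Hbb-bs, Hba-a1, S100a8 and Lcn2 lie near the line, and most myelin genes lie between it and 0 in the NAc.

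Each gene here is given at its probe of smallest p for the difference between structures. The genes whose defeat difference was higher in the VTA than in the NAc were Slc9a8, a sodium proton exchanger of the Golgi, by 0.61 ± 0.11, Gatb, a mitochondrial amidotransferase subunit, by 0.57 ± 0.12, and Tceal9 by 0.45 ± 0.10 (SE). The lower ones were Osbpl8, a lipid transfer protein, by -1.10 ± 0.19, Zbtb33, the methyl-DNA binding protein Kaiso, by -0.99 ± 0.18, and Dnajc10, a chaperone of the endoplasmic reticulum, by -1.02 ± 0.19 (SE). None passed in the main fit, with adjusted p from 0.103 to 0.123 (limma). In a fit with replicate number as a block, 73 probes passed, among them Slc9a8, Gatb, Osbpl8, Zbtb33 and Dnajc10. Whether pools with the same number were paired was not tested. With median scaling Osbpl8 and Zbtb33 passed, at -1.47 and -1.17, and without susceptible pool 3 these 2, Dnajc10 and Slc9a8 passed. Osbpl8 itself differed by -0.15 ± 0.13 in the VTA and 0.95 ± 0.13 (SE) in the NAc. At that probe Slc9a8 was 7.98 to 8.28 in defeated VTA pools and 7.71 to 7.97 in control VTA pools, without overlap. Over its 3 probes the VTA difference was 0 to 0.29, with a median of 0.05. Other probes of these genes also differed less: the VTA difference was -0.35 to 0.04 for Dnajc10 and -0.28 to -0.02 for Zbtb33. For Osbpl8 it was -0.15 to 0.07 and for Gatb 0.03 to 0.14. The difference between structures is given for 1 probe of each gene.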

How the data were processed

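Mouse VTA and NAc total RNA, linearly amplified and biotin-labelled per the labels' protocols, was measured on 18 one-colour arrays. The files deposited by the authors hold 1 linear intensity per probe and sample, and a second deposited table holds normalized intensity values of the same arrays. No label or header names the scanner software or a background step. Affy is named by the submitters' processing notes.

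After 42 probes with no value were set aside, 44505 of 44547 entered the tests. Quantile normalization of the log2 intensities of all 18 arrays used limma 3.58.1 in R 4.3.3. No background was subtracted, so changes of dim probes are understated. The platform table names 1 gene for 28482 probes, covering 17274 genes. One limma model with 6 group means and a trend on intensity had 12 residual and 11.7 prior degrees of freedom. The pooled contrast gave susceptible and unsusceptible pools equal weight. Tests were two-sided, with Benjamini-Hochberg adjustment over all probes at 0.05. The p-values measure the spread between pools of 4 animals, and the number of arrays limits the precision. The code was tested on simulated data.

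Lists (35, with 799 entries, 706 measured by the brightest probe) are described by counts and medians. Genes named are the 10 of smallest p each way above the median probe mean, 2 of each list, 19 set genes, and 3 each way for the other 2 contrasts, and not all are printed. The members and lists were chosen with earlier results of these data known. Replicate numbers were not taken to pair pools. Alternatives were other scaling, background correction, the second deposited table, bright probes, VTA arrays alone, no trend, array weights, a replicate block and leaving out each VTA pool. Promoter sequences are RefSeq's (GRCm38.p6).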

Additional observations from a re-analysis of the deposited data

Results flagged for a closer look

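In 127 sets of 6 defeated VTA values, 1 for each named gene and list level, 23 had a pool far from the other 5, where chance gives about 1 in 20. VTA unsusceptible pool 3 was that pool in 21 of them. Among genes it was the lowest for Mbp at the leading probe (9.06, next 9.62) and at the brightest probe (15.98), Pdlim2 (9.36), Drd2 (8.05), Gata2 (8.66), Enpp6 (9.91), Gadd45b (7.24), Hcn2 (12.88), Th (9.52) and Slc6a3 (11.13). It was the highest for Calb1 (10.61), a calcium-binding protein of some dopamine neurons, Isl1 (9.67, next 7.75), a neuronal transcription factor, Oxt (8.74), oxytocin, Cacnb4 (8.44), Gabrg1 (9.16) and Bhlhe40 (12.70). Its list level was lowest for dopamine neurons (9.09, next 10.14), myelin (11.56), neuropeptides (9.47) and monoamine and nicotinic receptors (7.90), and highest for clock genes (9.90). Slc17a8, a vesicular glutamate transporter, was lowest in unsusceptible pool 2 (6.53), and the endothelial level was highest in susceptible pool 3 (9.55). Ndufa10, a subunit of respiratory complex I, was marked because all defeated pools were above control in the VTA (difference 0.25) and all below in the NAc (-0.28). The difference between the structures was 0.52 ± 0.12 (SE; adjusted p = 0.152, limma).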

How the results depend on the processing

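The pooled count of 0 probes was 1 with median scaling and otherwise 0, and 0 to 12 when 1 VTA pool was left out. The 12 were without control pool 1: 11 globin probes and 1 unnamed. The susceptible count of 1 was 11 with median scaling, 13 with array weights, and 0 with bright probes only, VTA arrays alone, no trend or the replicate block, and 0 to 15 without 1 pool. The unsusceptible count of 3 was 0 with median scaling, VTA arrays alone or no trend, 7 with the replicate block, and 0 to 270 without 1 pool. The count between susceptible and unsusceptible pools was 0 to 139 without 1 pool. For the VTA against NAc difference it was 4 with median scaling, 73 with the replicate block and 0 to 18 without 1 pool, the 18 without susceptible pool 3. Slc9a8, Gatb, Osbpl8, Zbtb33 and Dnajc10 passed with that block. Correlations between pools were also taken on deviations from each group's mean, not on levels. Same-numbered VTA pools gave -0.0451 to 0.114 (median 0.0538) and differently numbered ones -0.165 to 0.178 (median -0.0135). Over all arrays these were -0.0451 to 0.198 (median 0.0451) and -0.195 to 0.178 (median -0.015). The lowest same-numbered value was below 0, so the numbers were not taken as a pairing. The same-numbered median was the higher one, and whether such pools were paired was not tested. The 1120 probes without overlap were 610 among bright probes, where fewer probes were tested. Of 1845 single gene values under alternatives, 1819 kept direction and side of the threshold, 18 passed it anew and 8 turned. None had passed it in the main fit, so none could lose it. Size was not part of that count: Th, at -0.57, ran from -0.95 to -0.08 and counted as kept. Bdnf turned to -0.02 and the brightest Mbp probe to 0.01 with median scaling. Fos turned to 0.06, 0.03, 0.17 and 0.01 without susceptible pool 1, control pool 2, control pool 3 and unsusceptible pool 3 (range -0.28 to 0.17). Ttr turned to 0.23 and 0.07 without control pool 1 and susceptible pool 3 (range -0.97 to 0.23). The cause was not tested. Leaving pools out of the list counts was chosen after seeing the data. Myelin members lower at an unadjusted p under 0.05 were 5 to 11, with a median of -0.235 to -0.136, and those of the dopamine list 0 to 17. The share of all genes was 1.92% to 3.29%.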

Other observations

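Unsusceptible pool 3 was the highest VTA pool for 3 genes, picked after their values were seen. Tcf7l2, a Wnt effector that marks thalamic neurons, had 11.68, 11.58 and 10.96 in susceptible pools and 11.97, 10.68 and 13.22 in unsusceptible pools, against 11.51, 10.25 and 10.63 in control pools, a difference of 0.88 ± 0.31 (SE) that was 0.57 without that pool. Of its 5 probes, 3 were lower. Camk2a, a kinase of excitatory neurons, differed by 0.67 ± 0.21 (SE) and by 0.46 without that pool. Foxp1, a striatal transcription factor, differed by 0.35 ± 0.15 (SE). The lists they belong to had medians of 0.0366 (Wnt), 0.0265 (cortical excitatory neuron) and 0.0538 (medium spiny neuron), and the cortical list was highest in unsusceptible pool 1, at 8.81, against 8.58 in pool 3.

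Vessel wall genes went both ways. Acta2, the smooth muscle actin, had 10.80, 10.40 and 11.48 in susceptible pools and 10.37, 10.64 and 10.37 in unsusceptible pools, against 11.35, 10.62 and 11.89 in control pools, a difference of -0.61 ± 0.19 (SE), with all 5 probes lower. It was -0.30 without control pool 3 and -0.94 without control pool 2. Vwf, a clotting factor of endothelium, differed by 0.36 ± 0.13 (SE), and by 0.23 without control pool 2. Rsad2, an interferon-induced antiviral protein, differed by 0.31 ± 0.09 (SE) in the VTA and 0.46 in the NAc. The adjusted p of each was 0.986 (limma), and the pools overlapped.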
